A study of Mus musculus with 6 samples.

Results

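Aminoacyl-tRNA synthetases are the enzymes that load each tRNA with its amino acid. They were taken here as a family of 36 genes: 20 for the enzymes of the cytosol and 16 for those of the mitochondrion, whose symbols end in 2. A gene counted as measured when a probe with its current or former symbol had a detection p below 0.05 on at least 3 of 6 arrays, and it was represented by its brightest such probe. This left 33 of the 36 genes (20 cytosolic and 13 mitochondrial) among 12262 genes tested. The arrays held total RNA from mouse fetal liver at E13.5, strain C57/Bl6 and 129Sv per the labels. The double transgenic group (3 arrays) carried both R26-LSL-KITD816V, a mutant KIT receptor placed in the ROSA26 locus behind a stop cassette that Cre removes, and Vav-iCre, a Cre recombinase driven by the Vav gene of blood cells. The control group (3 arrays) carried 1 transgene each: Vav-iCre in replicate 1 and R26-LSL-KITD816V in replicates 2 and 3. No group was free of transgenes, the labels do not say whether an array held 1 liver or a pool, and the controls lay on the first 3 positions of 1 chip, so position and group cannot be told apart.

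Most synthetases recognise a single amino acid and its set of tRNAs, so the whole set is needed for any protein to be made. Most cytosolic enzymes have a separate nuclear gene for a mitochondrial counterpart, which is imported to charge the tRNAs encoded in mitochondrial DNA. Several cytosolic synthetases are held together in a multi-synthetase complex by the scaffold proteins AIMP1, AIMP2 and EEF1E1. Many cytosolic synthetase genes are known targets of ATF4, the transcription factor that is translated when amino acids run short or when eIF2 alpha is phosphorylated. Fetal liver at this age is full of dividing erythroid cells, which make large amounts of globin.

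Most synthetase genes stood slightly higher in the double transgenic livers, and no single gene passed the test. Of the 33 measured genes 31 had a difference above 0, against 57.6% of all genes tested. The differences, on the normalized log2 intensity scale and taken as double transgenic minus control, had a median of 0.46 for the 20 cytosolic genes and 0.32 for the 13 mitochondrial genes, and ran from -0.04 to 0.72 over all 33. The median over all 12262 genes was 0.07. With limma (n = 3 per group, two-sided, Benjamini-Hochberg adjustment over all genes, threshold 0.05) 0 of 20 cytosolic and 0 of 13 mitochondrial genes passed, where 8.95% of all genes passed in either direction, 2.53% upward and 6.42% downward. At an unadjusted p below 0.05, 7 cytosolic and 3 mitochondrial genes were higher and none was lower, a share of 30.3%, where 22.8% of all genes passed that level in either direction and 10.5% were higher at it. All 6 arrays were of like brightness, with a median signal of 137 to 144 and 38.1% to 39.5% of probes detected.

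The titles number the arrays of each group 1 to 3, and no label says that same-numbered arrays belong together. Number 1 has the Vav-iCre control, and numbers 2 and 3 have the R26-LSL-KITD816V controls. With the replicate number as a block, 2 members rose, both cytosolic: Lars (adjusted p = 0.0330) and Mars (adjusted p = 0.0313). In that fit 14.2% of all genes passed, 5.16% upward and 9.05% downward. Compared number by number, 24 of the 33 members were higher in the double transgenic array in all 3 numbers and none was lower in all 3. Of all genes 31.3% were higher in all 3.

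**Figure D1:**
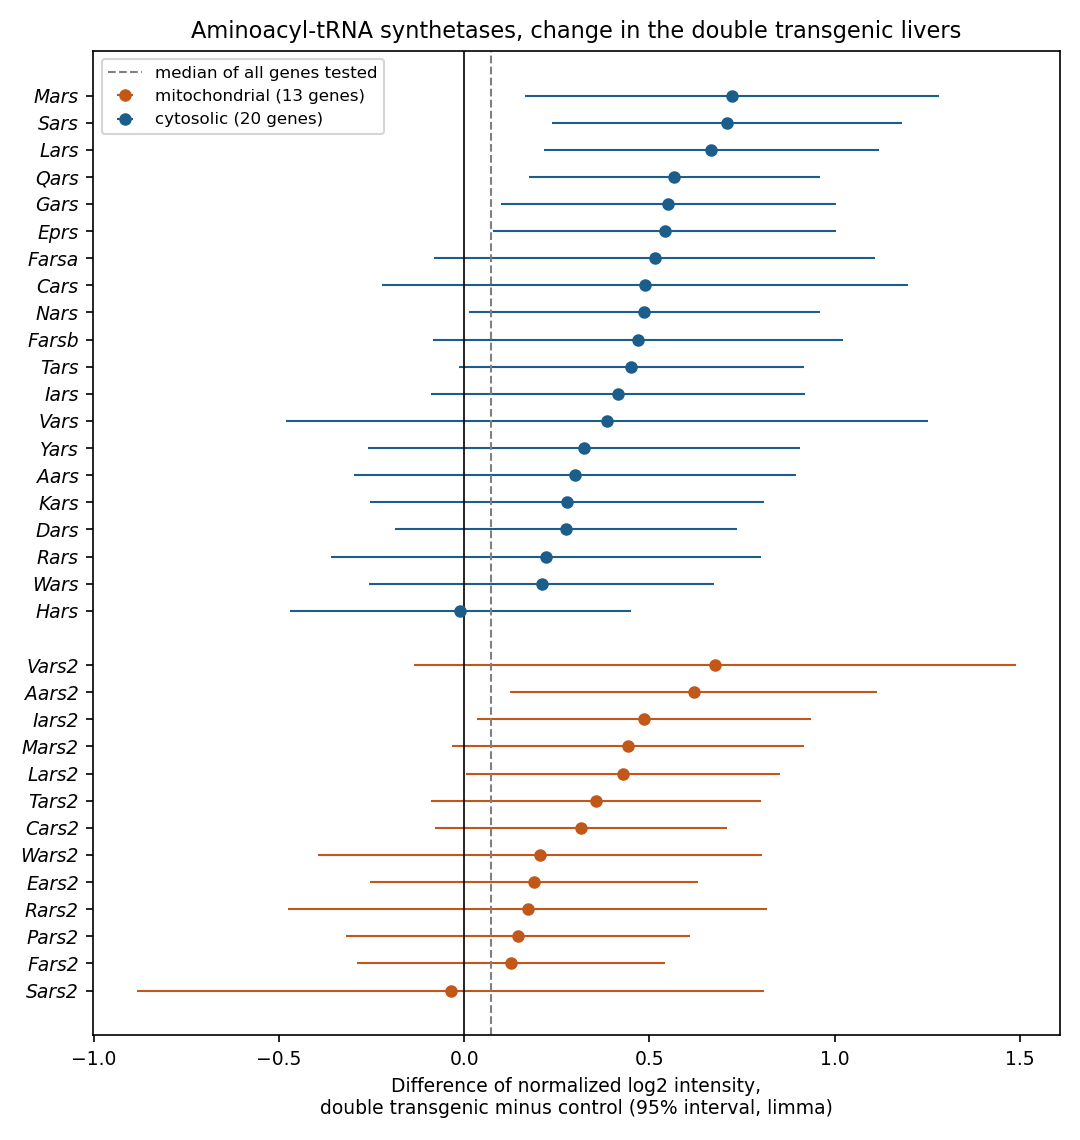
Difference of normalized log2 intensity, double transgenic minus control, for the 33 measured synthetase genes, as points with 95% intervals from limma (n = 3 arrays per group); cytosolic genes in blue, mitochondrial genes in orange, and the dashed line at the median of all genes tested. Points run from -0.04 (Sars2) to 0.72 (Mars), and 31 of 33 lie above 0, though no gene passed after adjustment over all genes.

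The cytosolic gene with the smallest adjusted p was Sars, the seryl-tRNA synthetase. Its normalized log2 intensity in replicates 1 to 3 was 10.08, 10.01 and 10.14 for controls against 10.42, 11.06 and 10.87 for double transgenic livers. The groups did not overlap, and double transgenic replicate 1 lay nearest the controls. The difference was 0.71 (SE 0.21, 95% interval 0.24 to 1.18, limma adjusted p = 0.0760). A second probe of Sars stood at 0.92. Without double transgenic replicate 1 the difference was 0.89 and passed (limma adjusted p = 0.0199). With the probes of each gene averaged it was 0.81 and passed (adjusted p = 0.0468). Sars passed in 4 of 19 alternative settings. Across all 19 the difference ran from 0.57 to 0.89, and the limma adjusted p reached 0.247.

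Lars, which charges leucine, read 12.26, 11.78 and 11.85 in controls and 12.77, 12.49 and 12.64 in double transgenic livers. Every double transgenic array was above every control array, and replicate 1 was the highest of each group. The difference was 0.67 (SE 0.20, 95% interval 0.21 to 1.12, limma adjusted p = 0.0805), and the 3 kept probes ran from 0.53 to 0.77. Without control replicate 1, the Vav-iCre control and the highest of the 3, it was 0.82 and passed (limma adjusted p = 0.0412). Without control replicate 2 it was 0.57 (adjusted p = 0.292), and without control replicate 3 it was 0.61 (adjusted p = 0.257). Lars passed in 7 of 19 alternative settings.

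Qars, for glutamine, read 12.22, 12.05 and 12.06 in controls against 12.63, 12.83 and 12.58. This was the tightest of the leading members, with an SD of 0.09 and 0.13 in the groups and a difference of 0.57 (SE 0.17, limma adjusted p = 0.0849). Its second kept probe gave 0.55. Across 19 alternative settings the difference of Qars ran from 0.48 to 0.66, and the limma adjusted p reached 0.288. It was past the threshold in 6 of the 19, with array weights and in those that follow. Qars passed without background correction and in the authors' deposited value table (0.56, limma adjusted p = 0.0233 in each), with a normexp offset of 50 (adjusted p = 0.0444), when dim probes were not filtered (adjusted p = 0.0436) and under trended, robust moderation of the variances (adjusted p = 0.0376).

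Mars, the methionyl enzyme that also charges the initiator tRNA, had the highest difference of the family at 0.72 (SE 0.24, 95% interval 0.16 to 1.28, limma adjusted p = 0.118). Its values were 8.18, 8.69 and 8.86 in controls and 8.98, 9.58 and 9.34 in double transgenic livers. The groups did not overlap, and the lowest array of each was replicate 1. Within the replicate numbers the differences were 0.80, 0.89 and 0.48. The block fit, which removes what same-numbered arrays share, had an SE of 0.15.

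Gars, for glycine, whose gene also makes the mitochondrial glycyl enzyme, read 13.06, 13.31 and 13.51 against 13.63, 14.01 and 13.89. Its difference of 0.55 (SE 0.20, limma adjusted p = 0.139) came with groups that did not overlap. Kars, for lysine, the other gene that serves both compartments, stood at 0.28 (SE 0.23, limma adjusted p = 0.525), with overlapping groups. Eprs, a single protein that charges both glutamate and proline, read 9.01, 8.80 and 8.47 against 9.40, 9.12 and 9.38, a difference of 0.54 (SE 0.20) that its second probe gave as 0.53. Nars, for asparagine, was at 0.49 (SE 0.21) and Tars, for threonine, at 0.45 (SE 0.20). In Eprs, Nars and Tars the lowest double transgenic array was above the highest control.

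**Figure D2:**
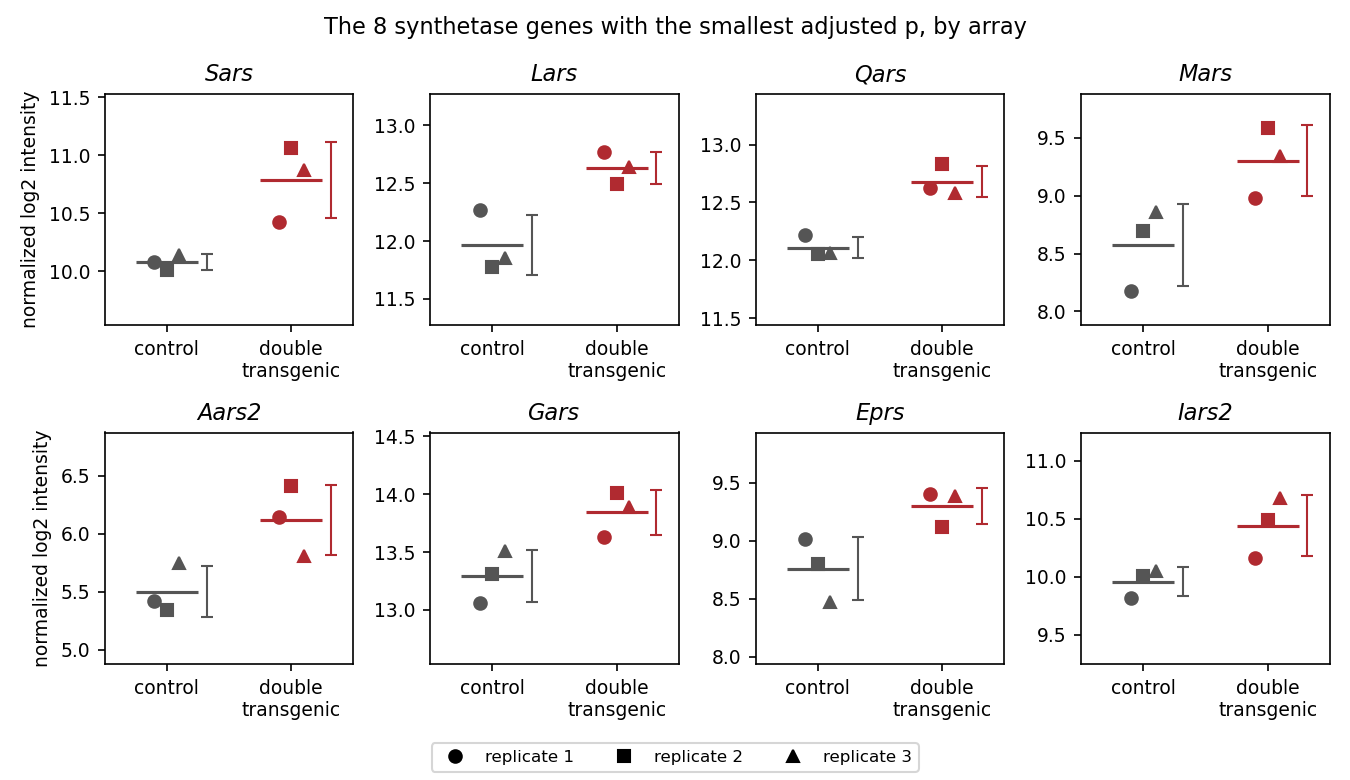
Normalized log2 intensity by array for the 8 synthetase genes with the smallest adjusted p, with a line at each group mean and a bar of 1 SD (n = 3); marker shape gives the replicate number, and each panel spans 2 log2 units. In all 8 the lowest double transgenic array lies above the highest control array, which choosing them by this same comparison favours. Of all 33 members 14 separate so. Replicate 1 (circle) is the lowest of both groups in Mars, Gars and Iars2 and the highest of both groups in Lars and Eprs.

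The remaining cytosolic genes had overlapping groups. Farsa and Farsb, the alpha and beta subunits of the phenylalanyl enzyme, stood at 0.51 (SE 0.26) and 0.47 (SE 0.24). Cars, for cysteine, was at 0.49 (SE 0.31), but it was detected on 4 of 6 arrays, and its highest values were 5.22 in controls and 6.31, on replicate 3, in double transgenic livers. Iars, for isoleucine, was at 0.42 (SE 0.22). Vars, for valine, was at 0.38 (SE 0.38), and its 3 kept probes spread from 0.38 to 1.07. Without control replicate 1, its lowest array, the difference of Vars was 0.04. Yars, for tyrosine, was at 0.32 (SE 0.26) and was detected on 1 control array and 2 double transgenic arrays, so its level is near the detection limit.

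Lower cytosolic differences, beside that of Kars, belonged to Aars, for alanine (0.30, SE 0.26), Dars, for aspartate (0.27, SE 0.20), Rars, for arginine (0.22, SE 0.25), and Wars, for tryptophan (0.21, SE 0.20). The 4 kept probes of Wars went from -0.03 to 0.55. Hars, for histidine, read 6.67, 6.67 and 6.43 in controls and 6.78, 6.26 and 6.70 in double transgenic livers, a difference of -0.01 (95% interval -0.47 to 0.45), while a dimmer probe of Hars stood at 0.29. The 95% intervals of Aars, Dars, Rars, Wars and Hars begin below 0 and end between 0.45 and 0.89, so a difference of 0.57, that of Qars, lies inside all but that of Hars. Without control replicate 1 Wars was at 0.04, and without double transgenic replicate 2 Kars was at 0.08.

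Among mitochondrial genes Aars2, the mitochondrial alanyl enzyme, had the smallest adjusted p. It read 5.42, 5.34 and 5.75 in controls and 6.14, 6.41 and 5.81 in double transgenic livers. The groups did not overlap, and replicate 3 was the nearest array on both sides. The difference was 0.62 (SE 0.22, 95% interval 0.12 to 1.11, limma adjusted p = 0.129). It depended on the background correction, and stood at 0.39 with a normexp offset of 50 and at 0.21 without correction and in the authors' deposited value table. Iars2, the isoleucyl enzyme, read 9.81, 10.01 and 10.05 against 10.16, 10.49 and 10.68, a difference of 0.49 (SE 0.20, limma adjusted p = 0.186), and its second probe stood at 0.64. Lars2, the leucyl enzyme, read 8.07, 8.14 and 8.22 against 8.43, 8.83 and 8.45, a difference of 0.43 (SE 0.19). In Iars2 and Lars2 all double transgenic arrays were above all controls.

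Mars2, for methionine, was at 0.44 (SE 0.21), Tars2, for threonine, at 0.36 (SE 0.19) and Cars2, for cysteine, at 0.32 (SE 0.17), each with groups that did not overlap. In all, 8 of 20 cytosolic and 6 of 13 mitochondrial genes had double transgenic values wholly above the controls, and none had them wholly below. Over all genes tested 14.8% were wholly above and 13.7% wholly below, 28.5% in all. The probe named Vars2 stood at 0.68 (SE 0.36), with 8.26, 9.23 and 9.36 in controls and 9.11, 10.17 and 9.61 in double transgenic livers. Vars2 is also an older symbol of the cytosolic gene Vars, and which of the genes this probe reads is not settled by the files. Without it the mitochondrial median was 0.26 over 12 genes.

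The other mitochondrial genes were nearer to 0. Wars2 stood at 0.20 (SE 0.26), Ears2, for glutamate, at 0.19 (SE 0.19), Rars2 at 0.17 (SE 0.28), Pars2, for proline, at 0.15 (SE 0.20) and Fars2, for phenylalanine, at 0.13 (SE 0.18). Sars2, the mitochondrial seryl enzyme, was at -0.04 (95% interval -0.88 to 0.81), with 5.81, 6.98 and 7.05 in controls against 6.03, 6.90 and 6.80. The other 3 genes did not reach the detection limit: both probes of Hars2 (0 and 1 of 6 arrays), the Nars2 probe (2 of 6 arrays, both control) and the Yars2 probe (0 of 6 arrays). No level is given for them.

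Whether a cytosolic enzyme changed more than its mitochondrial counterpart was tested on 14 pairs for the same amino acid, as the difference of their log2 intensities on each array. The cytosolic change was the higher in 11 pairs, but in none of the 14 did the groups separate. The smallest p that an exact permutation test of 3 against 3 arrays can give is 0.1, and the lowest here was 0.2 (two-sided, adjusted p = 0.778 over the 14 pairs). The widest gap was in serine. Sars stood at 0.71 and Sars2 at -0.04, and Sars minus Sars2 was 4.27, 3.03 and 3.09 in controls and 4.39, 4.16 and 4.07 in double transgenic livers, a difference of changes of 0.75 (exact permutation p = 0.3). Control replicate 1 overlapped the double transgenic arrays there, and replicates 2 and 3 did not. In alanine the order was turned, with Aars at 0.30 and Aars2 at 0.62 (exact permutation p = 0.5), and in isoleucine the 2 enzymes stood at 0.42 and 0.49 (exact permutation p = 0.6). Within the replicate numbers, Sars minus Sars2 differed by 0.13, 1.13 and 0.98, Mars minus Mars2 by 0.28, 0.13 and 0.43, Lars minus Lars2 by 0.14, 0.02 and 0.56 and Farsb minus Fars2 by 0.62, 0.38 and 0.02. These 4 pairs had one sign in all 3 numbers, with the cytosolic change higher, and the other 10 did not. An exact sign-flip test over 3 numbers cannot give a p below 0.25, so it could pass no pair (adjusted p = 0.875 for these 4). Without replicate 1 of both groups 5 pairs separated, those 4 and Cars with Cars2, at the smallest exact permutation p that 4 arrays allow (0.333). A p that misses the threshold here does not show that the enzymes of a pair changed alike.

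**Figure D3:**
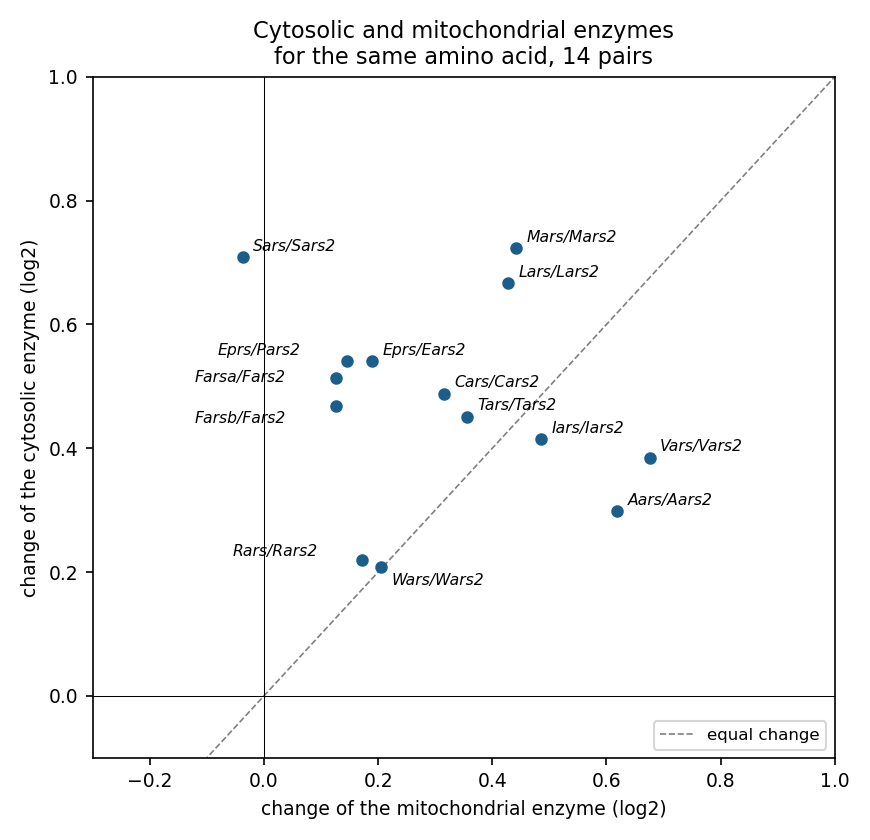
Change of the cytosolic enzyme (vertical axis) against that of the mitochondrial enzyme for the same amino acid (horizontal axis), both as double transgenic minus control on the log2 scale, for 14 pairs; Eprs is paired with Ears2 and with Pars2, and Fars2 with both subunits of the cytosolic enzyme. On the dashed line both change equally: 11 pairs lie above it and 3 (Iars, Aars and Vars) below.

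Cytosolic enzymes inside and outside the multi-synthetase complex were not tested against each other. The 8 complex members (Dars, Eprs, Iars, Kars, Lars, Mars, Qars and Rars) had a median of 0.48, from 0.22 to 0.72, and the 12 cytosolic genes outside it a median of 0.46, from -0.01 to 0.71. Of the scaffold genes, Eef1e1 read 11.41, 10.95 and 11.07 in controls and 12.02, 11.53 and 11.64 in double transgenic livers, a difference of 0.59 (SE 0.21, limma adjusted p = 0.139, or 0.0403 with the replicate block). Aimp1 was at 0.52 (SE 0.21, limma adjusted p = 0.174) with groups that did not overlap, and Aimp2 at -0.02 (SE 0.26, adjusted p = 0.977). By catalytic fold, 17 measured class I genes had a median of 0.42 and 15 class II genes one of 0.36. Eprs, which holds an active site of each class, was in neither.

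Replicate 1 of both groups departed from replicates 2 and 3 in the same direction in 75.8% of members, near the 70.2% of all genes. This held for 17 of 20 cytosolic genes (85%) and 8 of 13 mitochondrial genes (61.5%). Lower in replicate 1 of both groups were 14 members, most clearly Vars (by -1.05 in controls and -1.06 in double transgenic livers), Sars2 (-1.20 and -0.82), the Vars2 probe (-1.03 and -0.78), Mars (-0.59 and -0.49) and Aars (-0.44 and -0.77). Higher in replicate 1 of both groups were 11 members, among them Rars2 (0.74 and 0.67), Rars (0.52 and 0.67) and Farsb (0.59 and 0.49). In 10 of the 25 genes with a shared direction this departure was larger in both groups than the difference between the groups. The share of all genes with so large a departure was not computed. The control of replicate 1 carried Vav-iCre and the other controls R26-LSL-KITD816V, whereas all double transgenic livers had 1 genotype. Without replicate 1 of both groups the medians were 0.49 for cytosolic and 0.30 for mitochondrial genes. Lars (0.75, limma adjusted p = 0.0307), Nars (0.62, adjusted p = 0.0418) and Sars (0.89, adjusted p = 0.0220) passed, where 14.9% of all genes did.

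**Figure D4:**
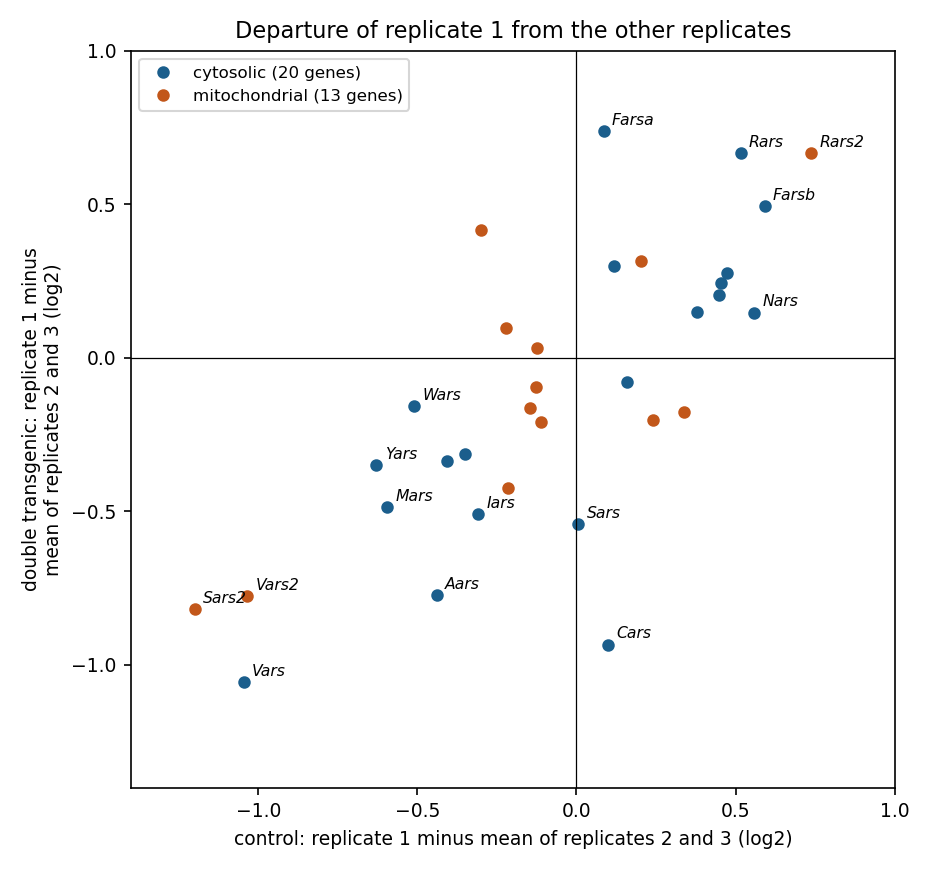
Replicate 1 minus the mean of replicates 2 and 3, on the log2 scale, in controls (horizontal axis) and in double transgenic livers (vertical axis) for the 33 measured synthetase genes; genes that depart by more than 0.5 in either group are named. The 14 genes at lower left are low in both replicates numbered 1, and the 11 at upper right are high in both.

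Other genes known as targets of the amino acid response include calls, where the synthetases have none. Of 23 measured, 9 rose (39.1%, against 2.53% of all genes), 0 fell and the rest missed the threshold. The median of the 23 was 0.81, and with the replicate block 13 rose, where 5.16% of all genes did. The difference between this list and the synthetases was not tested. Trib3, a pseudokinase induced under stress, rose by 3.65 (SE 0.39, limma adjusted p = 0.00147), and Chac1, which degrades glutathione, by 2.74 (SE 0.43). Ddit4, an inhibitor of mTORC1 signalling, rose by 2.36 (SE 0.40), Stc2, a secreted glycoprotein, by 1.81 (SE 0.24) and Pycr1, an enzyme of proline synthesis, by 1.23 (SE 0.17). Pycr1 was detected on 1 of 3 control arrays. Slc7a11, the cystine transporter, was detected on no control array, so it entered the test through its 3 double transgenic arrays alone. It was at least 3.17-fold higher, from the double transgenic mean against the lowest detected signal of the control arrays. That bound was not tested, and the gene is counted among the 9 that rose. Atf4 itself, which is controlled mainly in translation, stood at 0.20 (SE 0.23, limma adjusted p = 0.666). Asns, which makes free asparagine and charges no tRNA, stood at 0.62 (SE 0.17, limma adjusted p = 0.0564, or 0.0435 with the block). Of the 23 genes 20 were above 0, while Atf5 (-0.44), Phgdh (-0.27) and Slc1a5 (-0.10) were below it. Psat1 stood at 0.07. Atf4, Asns, Atf5, Phgdh, Slc1a5 and Psat1 were chosen after their values were seen.

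The letters TGATGNAA, the core of the C/EBP-ATF composite element through which ATF4 acts, were searched on both strands in RefSeq promoters (GRCm38.p6, 250 bases before to 50 after a gene's start). Promoters were on hand for 27 of the 36 members, and 5 of these held the letters, all of them cytosolic genes, whereas 3.97% of all 32851 promoters did. Their sequences are shown because they are the member promoters with this element. The strand given is the gene's own, and capitals mark the element (TTGCATCA and TTTCATCA are it on the opposite strand) and any E-box, CACGTG, the site of MYC and related factors. The Aars promoter lies at chr8:111033592-111033891 (plus strand), that of Gars at chr6:55037751-55038050 (plus), that of Iars at chr13:49681880-49682179 (plus), that of Tars at chr15:11399609-11399908 (minus) and that of Yars at chr4:129189653-129189952 (plus).
Aars: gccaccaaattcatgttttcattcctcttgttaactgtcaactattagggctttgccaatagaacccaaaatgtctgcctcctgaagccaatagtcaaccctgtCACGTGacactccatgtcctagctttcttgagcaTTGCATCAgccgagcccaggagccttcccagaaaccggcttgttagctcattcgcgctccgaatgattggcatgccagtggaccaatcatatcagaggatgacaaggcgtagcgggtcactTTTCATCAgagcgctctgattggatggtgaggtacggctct
Gars: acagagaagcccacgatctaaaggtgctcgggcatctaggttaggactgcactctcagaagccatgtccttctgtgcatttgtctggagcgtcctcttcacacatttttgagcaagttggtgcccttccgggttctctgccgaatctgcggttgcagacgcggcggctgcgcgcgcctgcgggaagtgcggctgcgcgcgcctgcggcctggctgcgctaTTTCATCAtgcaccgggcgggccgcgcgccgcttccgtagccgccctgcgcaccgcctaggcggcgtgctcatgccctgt
Iars: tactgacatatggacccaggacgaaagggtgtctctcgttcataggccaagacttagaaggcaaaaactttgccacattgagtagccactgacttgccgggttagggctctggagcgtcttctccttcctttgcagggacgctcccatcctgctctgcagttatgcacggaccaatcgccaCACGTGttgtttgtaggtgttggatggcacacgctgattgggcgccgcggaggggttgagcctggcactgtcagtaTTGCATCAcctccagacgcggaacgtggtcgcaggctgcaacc
Tars: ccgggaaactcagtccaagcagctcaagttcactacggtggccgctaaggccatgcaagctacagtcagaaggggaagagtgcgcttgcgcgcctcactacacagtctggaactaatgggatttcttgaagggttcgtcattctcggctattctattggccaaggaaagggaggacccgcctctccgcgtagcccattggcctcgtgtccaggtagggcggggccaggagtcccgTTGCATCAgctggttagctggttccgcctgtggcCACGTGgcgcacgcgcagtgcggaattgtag
Yars: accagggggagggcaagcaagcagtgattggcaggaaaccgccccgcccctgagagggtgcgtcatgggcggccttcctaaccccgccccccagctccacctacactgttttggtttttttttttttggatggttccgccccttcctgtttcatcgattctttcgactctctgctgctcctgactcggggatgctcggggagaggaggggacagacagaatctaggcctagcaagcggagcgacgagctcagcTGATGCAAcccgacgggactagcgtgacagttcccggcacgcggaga
Aars held the element at bases -112 and 9 from the start, Gars at -30, Iars at 7, Tars at -15 and Yars at 3. The changes of these 5 genes were 0.30, 0.55, 0.42, 0.45 and 0.32, inside the range of the members without a match. Mars, Sars, Qars and Eprs, with changes of 0.54 to 0.72, had no match in this window. The E-box was present in 5 of the 27 member genes (Aars, Farsb, Iars, Tars and Ears2) and in 7.15% of all promoters. A match describes the sequence only, and binding was not measured.

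Other genes that handle tRNA held 1 call. Of 14 genes of tRNA maturation, Tsen34, a subunit of the tRNA splicing endonuclease, fell by 1.20 (SE 0.31, limma adjusted p = 0.0486), and the other 13 missed the threshold. This is 7.14% of the list, near the 6.42% of all genes that fell. The list's median was 0.22. None of 5 cytosolic elongation factors passed, with a median of 0.19. Eef1a1 (15.04 in controls, 15.11 in double transgenic livers) and Eef1g (14.67 and 14.87) lay near the highest value of each array, 15.27. This limits the rise that they could show. Of 18 genes of mitochondrial translation and tRNA modification none passed, with a median of 0.20, and Gfm2, a mitochondrial recycling factor, was at 0.65 (SE 0.21) and rose with the replicate block (adjusted p = 0.0374). Among 6 synthetase-like and selenocysteine tRNA genes none passed, with a median of 0.52. Of these 4 stood at 0.50 to 0.54, while Sephs1 (-0.23) and Sephs2 (-0.20) were below 0.

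The unfolded protein response of the endoplasmic reticulum is another stress route that raises ATF4. Of 11 measured genes listed as its targets, chaperones among them, 2 had a difference above 0 and none passed, with a median of -0.23. This list does not cover genes raised through ATF4 that are counted in the amino acid response list, such as Trib3 and Chac1. With the replicate block 2 of the 11 fell, where 9.05% of all genes did. These were Calr (-0.96, limma adjusted p = 0.0127), a chaperone of the endoplasmic reticulum, and Xbp1 (-0.64, adjusted p = 0.0430), a transcription factor of this response. Of 9 genes of eIF2 alpha phosphorylation 5 were measured, and Eif2ak3, Eif2ak4, Eif2s1 and Gcn1l1 were not. None of the 5 passed, with a median of 0.01. With the block 1 of them fell, Ppp1r15a, a subunit of the phosphatase that removes the phosphate (-0.94, adjusted p = 0.0293). Ddit3, counted in the amino acid response list and not here, rose by 1.49 (SE 0.29, limma adjusted p = 0.0144). Which stress route the values of these lists reflect was not tested. Apart from Trib3 and Chac1, the genes named in this paragraph were chosen after their values were seen.

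**Figure D5:**
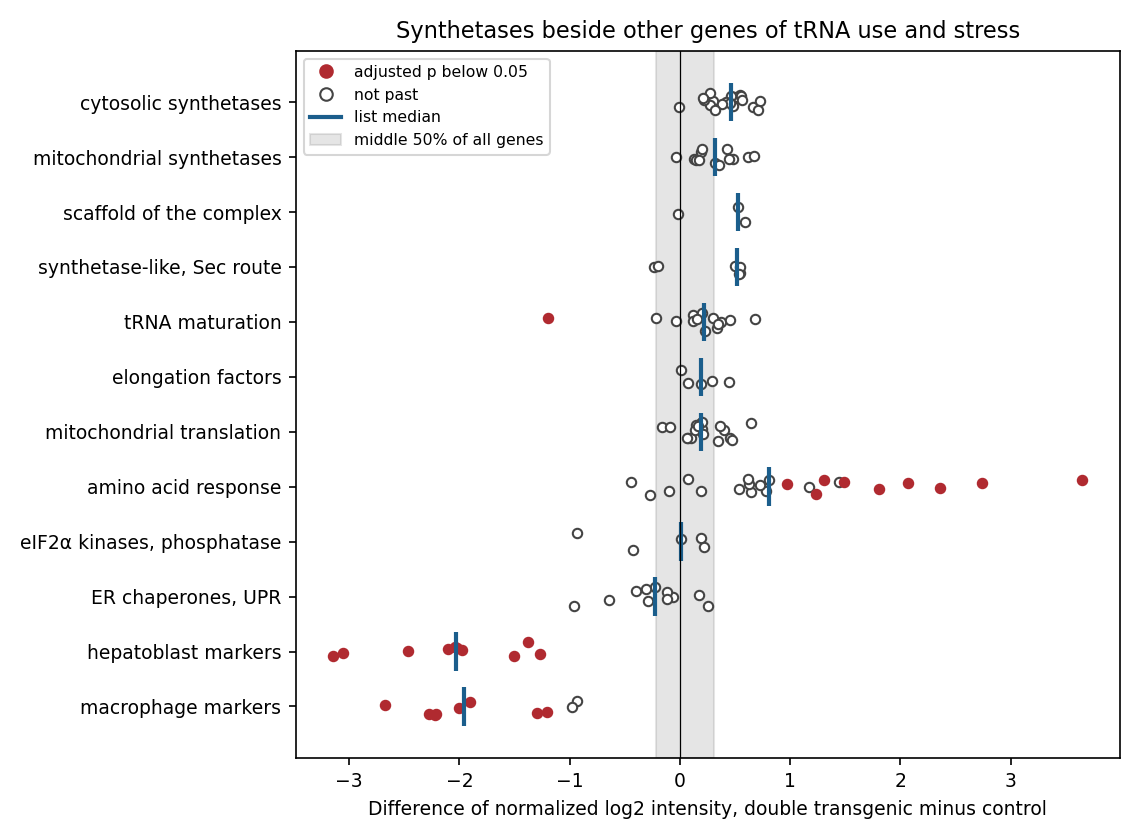
Difference of normalized log2 intensity, double transgenic minus control, for the measured genes of each list, as filled points where limma's adjusted p was below 0.05 and open points otherwise, with blue bars at list medians and a grey band over the middle 50% of all genes tested. The synthetases lie between -0.04 and 0.72 with no filled point, the amino acid response list reaches 3.65, and the hepatoblast and macrophage markers lie below -0.9.

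Markers of other liver cell types also differed between the groups. Of all genes tested 6.42% fell, and 9.05% did with the replicate block. All 10 measured hepatoblast markers fell, with a median of -2.03. The log2 of their summed intensities was 16.28 to 16.67 in controls and 14.45 to 15.02 in double transgenic livers. Such a sum, also given for the other lists, rests mostly on the brightest genes of a list. Of 10 macrophage markers 8 fell, with a sum of 12.65 to 12.69 against 10.39 to 11.09. Of 9 late erythroid markers 3 fell, Xpo7 (-2.63), Tmcc2 (-2.49) and Alas2 (-1.345), with a sum of 17.04 to 17.05 against 16.56 to 16.85. That sum rests mostly on Hba-a1, Hbb-b1 and Slc4a1. Their control means of 14.93, 14.99 and 14.93 are near the highest value of each array, 15.27, so the sum says little of the dimmer markers. Of 7 endothelial markers 1 fell (11.36 to 11.41 against 10.76 to 11.44), and of 6 megakaryocyte markers 0 fell (13.17 to 13.73 against 12.44 to 13.57). Of 6 mast cell markers 1 was measured, Cpa3, and it fell (6.87 to 7.68 against 5.47 to 6.52). With the replicate block all 10 macrophage markers, 3 of the endothelial markers and 1 of the megakaryocyte markers fell, and the counts of the other lists stayed as given. Afp, a secreted protein of fetal hepatoblasts, was detected on all 6 arrays of these livers, while Alb and Fgb were not measured here. In whole tissue, fewer cells of a type and less RNA per cell cannot be told apart, and the part of these shifts in the values of the synthetases was not tested. Kit, the gene carried by the transgene, had control values of 9.21 ± 0.29 and double transgenic values of 9.98 ± 0.31 (SD, n = 3; difference 0.77, SE 0.23, limma adjusted p = 0.0817), and whether its probe reads the transgene is not known.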

How the data were processed

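The study measured fetal liver RNA on Illumina bead arrays (6 arrays, 3 per group, grouped by their titles). The deposited table gives a signal intensity per probe and array, not normalized between arrays, and a detection p-value against negative control beads, per the file headers. Per the submitters' processing notes, GenomeStudio was used. The intensity values in the authors' second table lay within 0.302% of the quantile normalized signal.

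Signals were background corrected and quantile normalized with neqc (offset 16) in R 4.3.3 with limma 3.58.1, and log2 intensity is used throughout. Of 45281 probes, 17855 with detection p below 0.05 on at least 3 arrays were kept. Symbols were updated through a RefSeq table of GRCm38.p6, and Mars keeps its array name. The brightest kept probe stood for each of 12262 genes. Groups were compared with lmFit and eBayes. The fit was tested on simulated data.

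The members, gene lists and tests were chosen with earlier results of these data known. All 36 members are named, and of other lists up to 6 genes past the threshold by smallest adjusted p, with the scaffold genes, while other genes were named after their values were seen. Alternatives varied background correction, normalization, filter, probe choice, moderation, weights, table, replicate block and single arrays. The replicate numbers come from the titles. Same-numbered arrays deviated together (correlations across genes of 0.536, 0.283 and 0.206, each above 0.1), although control replicate 3 correlated best with double transgenic replicate 2, so the block fit is given where it changes a call. No label says that arrays hold separate embryos, and the spread behind each p-value may be technical. The number of arrays limits the precision.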

Additional observations from a re-analysis of the deposited data

How the results depend on the processing

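No measured member was past the threshold in the fit as reported. In what follows, brackets give the share of all genes that passed in either direction. The number of cytosolic members past the threshold was 2 without background correction (8.05%), in the authors' value table (8.06%) and with trended and robust moderation (8.84%). It was also 2 with the replicate block (14.2%). It was 1 with a normexp offset of 50 (8.81%), with no filter (3.18%) and with probes averaged (8.65%). With array weights 7 of 20 passed (22.4%). When single arrays were left out it was 0 to 1, with 1 without control replicate 1 (8.41%) and 1 without double transgenic replicate 1 (11.4%). Without replicate 1 of both groups it was 3 (14.9%). Mitochondrial members passed only with array weights, where 2 of 13 did, Aars2 and Iars2 (22.4%). The weights of replicate 1 were 0.348 in controls and 0.343 in double transgenic livers. Over all genes the count was 1097, against 2748 with array weights, 1743 with the replicate block and 1828 without replicate 1 of both groups. It ran from 555 to 1397 when single arrays were left out, with 555 without control replicate 2, 594 without control replicate 3 and 619 without double transgenic replicate 2. The number of pairs that separated was 1 without background correction, in the authors' table and with an offset of 50 (Sars and Sars2), and 1 with no filter (Nars and Nars2), each at an exact permutation p of 0.1. It was 0 to 4 when single arrays were left out (3 without control replicate 1 and 1 without control replicate 3, and of the double transgenic arrays 1, 2 and 4 without replicates 1, 2 and 3 in turn), and 5 without replicate 1 of both groups, where fewer arrays separate more easily. Array weights and other moderation of the variances have no part in the permutation test. In the settings with 33 members measured, 30 to 33 were above 0. It was 29 of 31 with detection on all 6 arrays, 30 of 32 without the Vars2 probe and 32 of 36 with no filter. The median ran from 0.35 to 0.53 for cytosolic and from 0.21 to 0.43 for mitochondrial members, and over all genes from -0.01 to 0.13.

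Of the 33 members, 20 moved by over 1.5 times or changed sign when some single array was left out, 7 under another background correction and 10 under another scaling. Cars was at 0.16 and Farsa at 0.25 without background correction, and Vars2 at 0.33 without control replicate 1. The sign changes were in members that were not called. With single arrays left out Hars ran from -0.110 to 0.148, Sars2 from -0.437 to 0.236, Rars from -0.003 to 0.391, Rars2 from -0.051 to 0.417 and Pars2 from -0.011 to 0.234. The signs turned without control replicate 1 or 2 or double transgenic replicate 2 for Hars, without control replicate 2 or 3 or double transgenic replicate 1 for Sars2, without double transgenic replicate 1 for Rars and Rars2, and without double transgenic replicate 2 for Pars2. Hars was at 0.139 with probes averaged, and Wars2 at -0.034 without replicate 1 of both groups. For these and the counts above the cause was not tested. Leaving out the Vars2 probe was chosen after seeing the data and changed no call among the members.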
